A study of Mus musculus with 6 samples.

Results

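The Wnt ligands described here are 10 secreted signalling proteins, Wnt2, Wnt2b, Wnt3, Wnt4, Wnt5a, Wnt6, Wnt7a, Wnt7b, Wnt10a and Wnt11, whose transcripts were measured in the whole cornea of 3-day-old mouse pups. They were taken by symbol from the array annotation, which pairs each of them with at least 1 probe set of its own. The 10 genes have 11 probe sets among the 23410 tested, and they stand among 19938 distinct gene symbols on the array. Wnt4 has 2 probe sets, of which the brighter was used, and each other ligand has 1.

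There were 3 arrays of K14-DN-Clim corneas and 3 of wild-type (WT) littermates, both at postnatal day 3, on the Affymetrix Mouse Gene 1.0 ST array. K14-DN-Clim mice (DN-Clim below) carry a dominant-negative form of the CLIM proteins, cofactors of LIM-domain transcription regulators, driven by the keratin 14 promoter, which is active in basal epithelial cells. The tissue measured also held stroma, endothelium and vessels, in which that promoter is not known to be active. The labels give neither the strain nor whether a replicate was 1 pup or a pool. The p-values therefore rest on the spread between arrays, some of which may be technical.

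Wnt proteins are lipid-modified ligands that leave the cell on the carrier Wls after the acyltransferase Porcn has modified them, and that bind Frizzled receptors with co-receptors of the Lrp or Ror type. Some mainly stabilise beta-catenin, which then acts with TCF/LEF factors on target genes, and others, Wnt5a and Wnt11 among them, are best known for beta-catenin-independent signalling in cell polarity and movement. In the mouse eye Wnt signals take part in forming the lens, the ciliary margin and the corneal epithelium. The study's title names Wnt signalling as a process that CLIM proteins modulate, and the comparison below asks how the ligand transcripts themselves stood in DN-Clim corneas.

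Levels are given as log2(intensity + 16), where 16 is an offset that damps the noise of dim probe sets and understates the differences of dim genes. A difference is DN-Clim minus WT on this scale, so that a value of -1 is close to a halving for a bright gene. Levels of different genes are not set against each other, because probe sets differ in their response. A probe set passed where its p-value from limma, adjusted by Benjamini-Hochberg over all 23410 probe sets, lay below 0.05.

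The arrays did not fall into the 2 groups by label alone. A lens marker list, 15 genes, had a summed intensity of 107632, 103301 and 4483 on DN-Clim replicates 1, 2 and 3, against 4745 to 7150 on the WT arrays. Of the 15 lens genes, 14 on DN-Clim replicate 1 and 13 on DN-Clim replicate 2 lay above all WT arrays, and 5 did so on DN-Clim replicate 3, against 23.1%, 27.2% and 39.8% of all probe sets. A retina and photoreceptor list of 8 summed to 5872, 9531 and 2577 on the DN-Clim arrays, against 1735 to 3299 in WT, and 7, 7 and 3 of the 8 lay above all WT arrays. A list of 6 markers of pigment cells summed to 9967, 9098 and 2110 in DN-Clim, against 4887 to 7861 in WT. A list of 10 keratocyte and stroma markers summed to 20785, 16198 and 39550 on the DN-Clim arrays, against 39243 to 44209 on the WT arrays, and 9, 9 and 1 of the 10 lay below all WT arrays, against 38.8%, 50% and 28.2% of all probe sets. The corneal epithelium list of 10 summed to 26742, 23983 and 31831 on the DN-Clim arrays, against 30630 to 33953 in WT, and 7, 9 and 2 of the 10 lay below all WT arrays. Of these 10 genes 9 had a mean lower in DN-Clim than in WT, and 2 fell without DN-Clim replicate 3, Aldh3a1 by 1.62 (limma adjusted p = 0.00446) and Krt14 by 0.81 (adjusted p = 0.047), a call that 1.52% of all probe sets shared in that direction. Krt12, the keratin that defines this epithelium, read 11.16, 11.04 and 11.95 on DN-Clim replicates 1, 2 and 3, against 11.21, 11.55 and 11.47 in WT, so that replicates 1 and 2 lay below every WT array and DN-Clim replicate 3 above. The vascular endothelium list of 7 summed to between 2308 and 3041 in DN-Clim and between 4603 and 4752 in WT. A macrophage list of 6 summed to between 1066 and 1234 in DN-Clim and between 1730 and 2110 in WT. The corneal endothelium list of 5 summed to between 3954 and 4065 in DN-Clim and between 3682 and 4257 in WT, and the conjunctiva and eyelid list of 8 to between 5782 and 9404 in DN-Clim and between 8162 and 13415 in WT. A list of 6 skeletal muscle markers summed to 2377, 1629 and 4916 on the DN-Clim arrays, against 1494 to 2015 in WT. No marker was listed at 0 on any array, and the lowest intensity in these 10 lists was 34.0, for Clec14a, a lectin of vessel endothelium. DN-Clim replicates 1 and 2 are therefore the arrays with more lens and retina signal and with less stromal and epithelial signal, and each result below is given with that split in view. In whole-tissue RNA, fewer cells of a type and less RNA per cell cannot be told apart.

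None of the 10 ligands passed with all 6 arrays, where 0.0128% of all probe sets did. Their differences ran from -1.17 for Wnt5a to 0.17 for Wnt7a, with a median of -0.26, against a median of -0.04 over all probe sets tested. Of the 10, 9 had a difference below 0, as did 57.2% of all probe sets. An unadjusted p below 0.05 with a lower DN-Clim level was found for 1 of 10, Wnt5a, against 4.49% of all probe sets. The groups did not overlap, with DN-Clim lower, for 2 of 10, Wnt2b and Wnt3, against 6.95% of all probe sets.

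**Figure D1:**
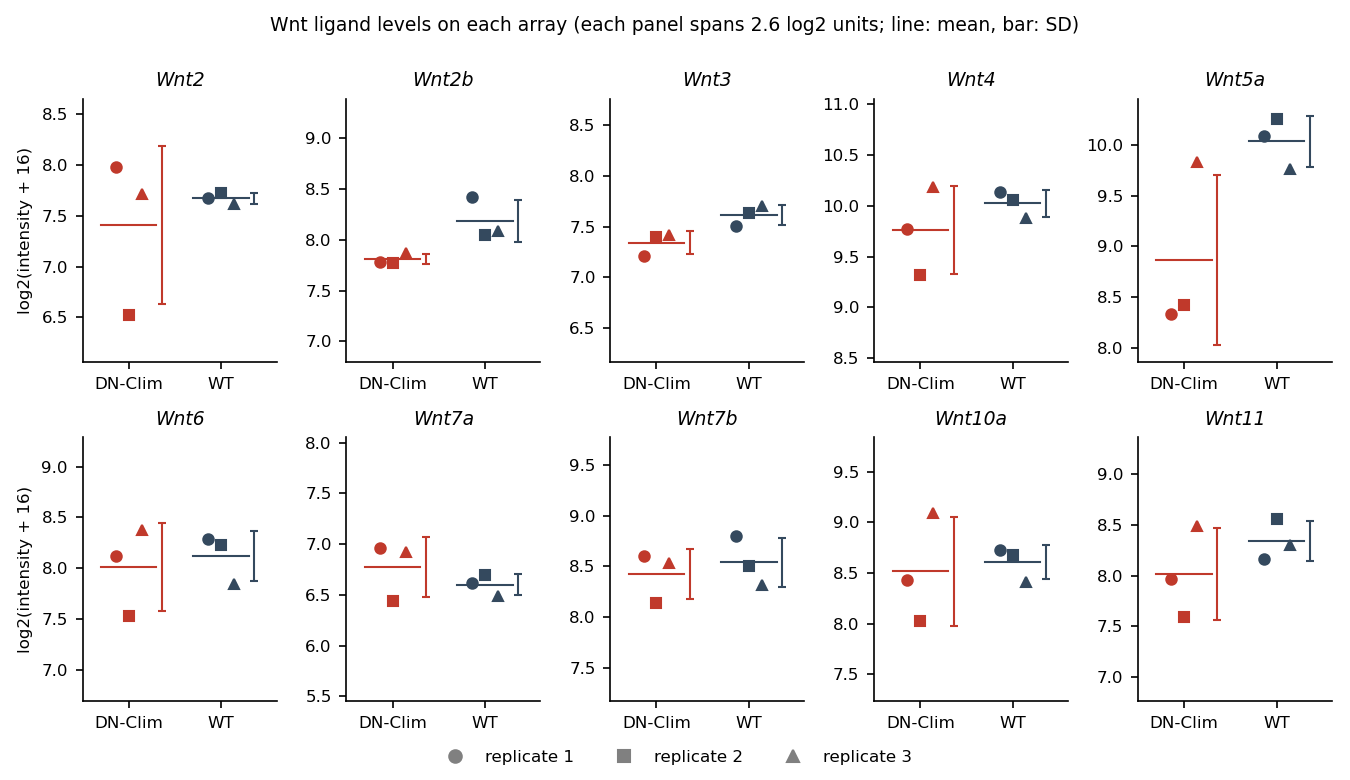
Level of each Wnt ligand, as log2(intensity + 16) on the vertical axis, on the 3 DN-Clim arrays (left, red) and the 3 WT arrays (right, blue), with the marker shape giving the replicate number, a line the mean and a bar the SD. Wnt5a is low on DN-Clim replicates 1 and 2 only, while the Wnt2b and Wnt3 points of the groups do not overlap.

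Wnt5a, a ligand of Ror and Frizzled receptors that is mostly made by mesenchyme in developing organs, had the largest difference of the 10. It read 8.34, 8.43 and 9.84 on DN-Clim replicates 1, 2 and 3, against 10.09, 10.26 and 9.77 on WT replicates 1, 2 and 3. Replicates 1 and 2 lay below every WT array, and DN-Clim replicate 3 lay between the lowest and the middle WT array. As intensities before the log, the same probe set (10413482) gave 307.5, 328 and 898 in DN-Clim, against 1071, 1211 and 856 in WT.

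The Wnt5a mean was 8.87 ± 0.84 in DN-Clim and 10.04 ± 0.25 in WT (SD, n = 3 each), a difference of -1.17 (SE 0.372, 95% interval -2.01 to -0.33, limma adjusted p = 0.70). Relative to the WT mean the DN-Clim arrays deviated by -1.70, -1.61 and -0.20. The spread among the DN-Clim arrays, 1.50 from lowest to highest, was thus larger than the difference between the groups. Without DN-Clim replicate 3, Wnt5a fell by 1.66 (SE 0.186, limma adjusted p = 0.00734), the call that 1.52% of all probe sets shared in that direction, and it was the 1 of 10 ligands to pass. That fit leaves 2 DN-Clim arrays, both with the lens signal, and its p ignores how that array was picked. Wnt5a also passed in limma with array weights (-1.67, adjusted p = 0.00202), as 5.86% of all probe sets did in that direction. That fit gave DN-Clim replicates 1, 2 and 3 weights of 3.06, 0.385 and 0.199, so its DN-Clim level rests mainly on replicate 1. With DN-Clim replicate 3 alone against WT the difference was -0.20 (SE 0.23, adjusted p = 0.646), and with the lens signal as a covariate it was -0.31 (SE 0.193, adjusted p = 0.468).

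**Figure D2:**
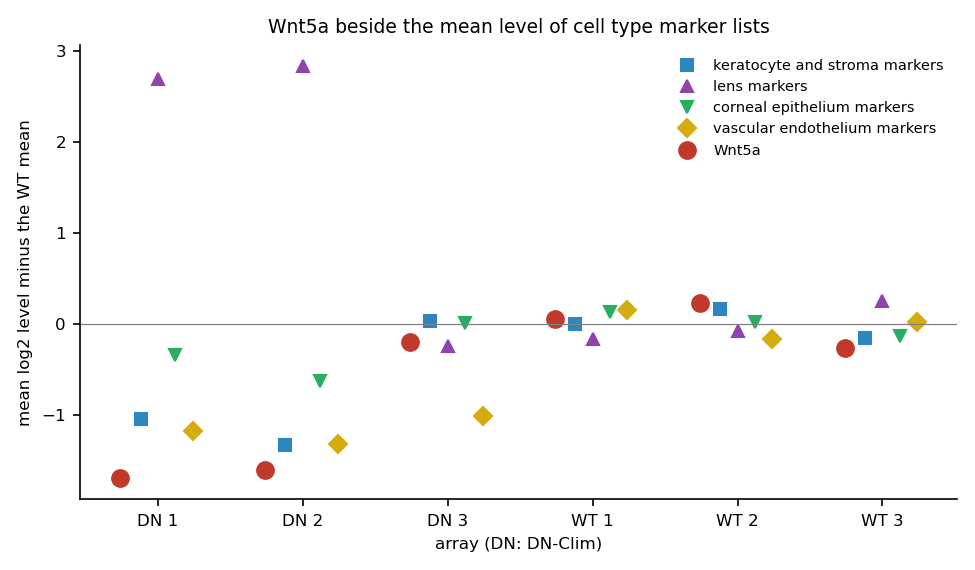
Level on each array minus the WT mean, in log2 units, for Wnt5a (large red circles) and for the mean of 4 marker lists, with the DN-Clim arrays on the left and the WT arrays on the right. Wnt5a and the keratocyte and stroma markers are low on DN-Clim replicates 1 and 2, where the lens markers are high. The corneal epithelium markers are lower there too, by less, and the vascular markers are low on all 3 DN-Clim arrays.

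The stromal list moved with Wnt5a across the arrays. The mean log2 level of its 10 markers was 10.45, 10.17 and 11.53 on DN-Clim replicates 1, 2 and 3, against 11.50, 11.66 and 11.34 in WT. Pdgfra, a receptor of mesenchymal cells on that list, read 7.55, 7.89 and 9.96 in DN-Clim, against 10.12, 9.93 and 9.61 in WT. In both Wnt5a and Pdgfra the low values thus belong to the same 2 arrays. Of the 10 stromal markers, 9 had a lower mean in DN-Clim than in WT, and Aldh1a1 went the other way. It read 10.66, 11.21 and 10.09 in DN-Clim, against 9.20, 9.62 and 9.68 in WT. The corneal epithelium list, and the conjunctiva and eyelid list, also had DN-Clim replicates 1 and 2 as the lowest arrays. The mean log2 level of the corneal epithelium list was 10.84, 10.55 and 11.18 in DN-Clim, against 11.30, 11.19 and 11.04 in WT. The part of the stromal, epithelial and lens signals in the Wnt5a difference was not tested.

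Among 17754 probe sets outside the Wnt pathway, those closest to Wnt5a in pattern were found by the root mean square (RMS) difference between profiles over the 6 arrays, each centred on its own mean. Adgrg6, an adhesion G protein-coupled receptor, was the closest at 0.114 log2 units. It was followed by Hmcn1, a basement membrane protein, at 0.116, Tmem119 at 0.128, Aldh3a1, the corneal epithelial aldehyde dehydrogenase, at 0.138 and Capn6 at 0.142. Their differences between the groups ran from -1.31 for Tmem119 to -0.98 for Hmcn1. The likeness rests on 6 arrays that differ in lens signal, and it is a description only.

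Wnt11 and Wnt4 shared with Wnt5a that DN-Clim replicates 1 and 2 were the lowest of the 6 arrays, while the order of the other 4 differed. Wnt2b and Wnt3, described below, also had these 2 arrays lowest. Of all probe sets, 38.8% lay below every WT array on DN-Clim replicate 1 and 50% on DN-Clim replicate 2. The share with both of these arrays lowest was not counted. Wnt11, which acts in convergent extension and organ branching, read 7.96, 7.59 and 8.49 on DN-Clim replicates 1, 2 and 3, against 8.16, 8.56 and 8.30 in WT. Replicates 1 and 2 lay below every WT array and DN-Clim replicate 3 between the middle and the highest. The difference was -0.33 (SE 0.249, 95% interval -0.89 to 0.24, adjusted p = 0.999), -0.56 without DN-Clim replicate 3 (adjusted p = 0.168) and -0.12 without DN-Clim replicate 2.

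Wnt4, a ligand needed for kidney and female reproductive tract development, read 9.78, 9.32 and 10.19 in DN-Clim, against 10.13, 10.06 and 9.88 in WT. DN-Clim replicates 1 and 2 were again the lowest arrays, and DN-Clim replicate 3 was the highest of the 6. The difference was -0.26 (SE 0.238, 95% interval -0.80 to 0.27, adjusted p = 0.999), -0.48 without DN-Clim replicate 3 (adjusted p = 0.212) and -0.045 without DN-Clim replicate 2. Its dimmer probe set (10509267) read 8.28, 7.07 and 8.40 in DN-Clim, against 8.56, 8.59 and 8.14 in WT, a difference of -0.51 (SE 0.338, adjusted p = 0.998). The Wnt4 probe sets shared the sign of the difference but not the order of the arrays, since on the dimmer probe set DN-Clim replicate 1 lay above the lowest WT array.

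Wnt2b and Wnt3 were the ligands whose DN-Clim arrays all lay below the WT arrays in the deposited values. This held on the 2 arrays with lens signal and on DN-Clim replicate 3. Wnt2b, a beta-catenin ligand known from the ciliary margin of the eye, read 7.79, 7.78 and 7.87 in DN-Clim, against 8.43, 8.05 and 8.09 in WT. The DN-Clim arrays spanned 0.095 and the WT arrays 0.376, WT replicate 1 being the highest. The mean was 7.81 ± 0.05 in DN-Clim and 8.19 ± 0.21 in WT (SD, n = 3 each), a difference of -0.38 (SE 0.184, 95% interval -0.79 to 0.04), which did not pass (limma adjusted p = 0.89).

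Wnt3, a ligand of limb, hair and tooth ectoderm that signals through beta-catenin, read 7.21, 7.40 and 7.42 in DN-Clim, against 7.51, 7.63 and 7.70 in WT. The gap between the highest DN-Clim and the lowest WT array was small beside the spread within either group, 0.21 in DN-Clim and 0.195 in WT. The difference was -0.27 (SE 0.175, 95% interval -0.67 to 0.12, limma adjusted p = 0.986). Array levels also differed, with medians over all probe sets of 8.22, 8.13 and 8.37 on DN-Clim replicates 1, 2 and 3. The WT medians were 8.29, 8.31 and 8.27. On DN-Clim replicate 2 the Wnt3 gap to WT replicate 1, 7.40 against 7.51, was smaller than the gap between their medians. The lack of overlap of Wnt3 thus depends on the array levels. With arrays centred on their medians the differences were -0.31 for Wnt2b and -0.20 for Wnt3. For DN-Clim replicate 3 alone the deviations from the WT mean were -0.32 for Wnt2b and -0.19 for Wnt3. Of the 10 ligands these were the 2 that DN-Clim replicate 3 held below all WT arrays.

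**Figure D3:**
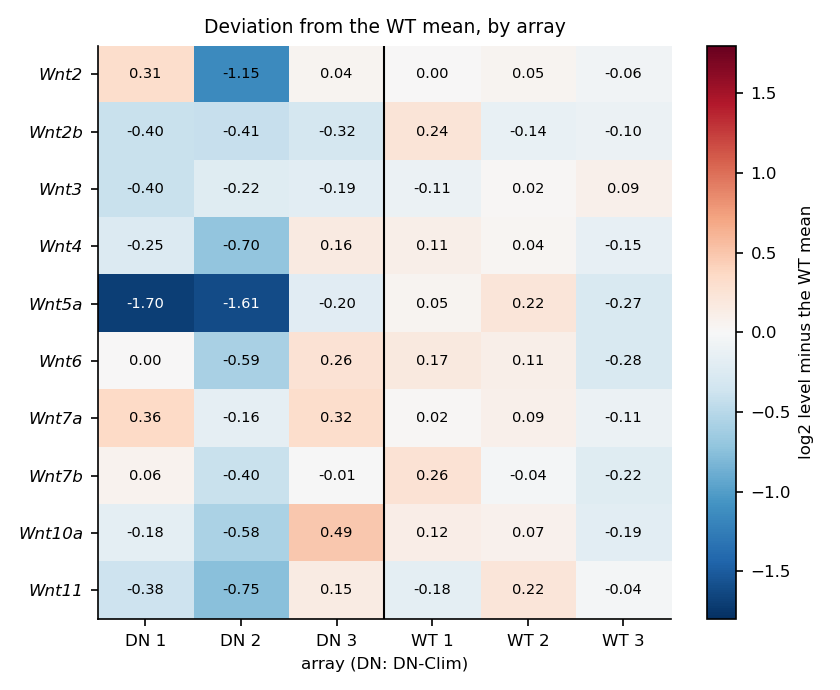
Deviation of each Wnt ligand from its WT mean, in log2 units, on the 3 DN-Clim arrays (left of the black line) and the 3 WT arrays (right of it), blue for lower and red for higher. DN-Clim replicate 2 is below the WT mean for all 10 ligands, and Wnt2b, Wnt3 and Wnt5a are the 3 ligands below it on every DN-Clim array.

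The RefSeq promoter windows (GRCm38.p6) run from 250 bases before to 50 bases after the transcription start. Those of Wnt2b and Wnt3 are shown because these ligands had no overlap between the groups in the deposited values. The Wnt11 window is shown for contrast. Windows were matched by symbol for 7 of the 10 ligands, Wnt11 with 2 of them, which makes 8 windows. Capitals mark CCAAT on either strand (ATTGG on the opposite strand) in Wnt2b and Wnt3. In Wnt11 they mark ATCAAAG, the core that TCF/LEF factors bind, and TATAAA, the TATA box.
Wnt2b, chr3:104961660-104961959, minus strand: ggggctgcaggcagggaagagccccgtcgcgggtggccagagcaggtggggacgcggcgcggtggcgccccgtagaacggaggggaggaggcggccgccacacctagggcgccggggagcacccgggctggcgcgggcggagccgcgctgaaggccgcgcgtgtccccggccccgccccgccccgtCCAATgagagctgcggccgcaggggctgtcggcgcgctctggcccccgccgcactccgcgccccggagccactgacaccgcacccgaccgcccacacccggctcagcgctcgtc
Wnt3, chr11:103773925-103774224, plus strand: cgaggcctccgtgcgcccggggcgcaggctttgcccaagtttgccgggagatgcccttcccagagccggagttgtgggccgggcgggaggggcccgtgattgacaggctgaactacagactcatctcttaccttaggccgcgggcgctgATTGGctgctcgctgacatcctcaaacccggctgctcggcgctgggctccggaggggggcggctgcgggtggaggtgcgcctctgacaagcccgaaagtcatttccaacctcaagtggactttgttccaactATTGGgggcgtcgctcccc
Wnt11, chr7:98834862-98835161, plus strand: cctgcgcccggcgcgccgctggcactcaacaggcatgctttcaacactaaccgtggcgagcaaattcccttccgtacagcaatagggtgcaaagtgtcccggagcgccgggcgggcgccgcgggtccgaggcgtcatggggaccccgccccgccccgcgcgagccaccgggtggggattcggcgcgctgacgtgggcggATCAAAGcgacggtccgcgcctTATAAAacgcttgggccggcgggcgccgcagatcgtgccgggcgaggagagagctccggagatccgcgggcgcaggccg

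CCAAT, searched on both strands, begins 64 bases before the start in Wnt2b, and at 101 bases before and 32 bases into the transcript in Wnt3. Among the 8 windows it was found in those of Wnt2, Wnt2b and Wnt3, and in 37.4% of all 32851 promoter windows. ATCAAAG was found in 1 of the 8, the Wnt11 window, and in 3.73% of all windows. TATAAA was found in the same Wnt11 window and in 13.6% of all. GGGCGG, the GC box, was found in all 8 windows and in 35.7% of all, and the 8 windows were between 59.3% and 84.3% G and C, against a median of 52.7% over all windows. TAATTA, a core that LIM homeodomain factors bind, was in 0 of the 8 and in 5.29% of all windows. None of these matches overlapped a match to another of the 5 strings, and a match is not evidence of binding.

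Wnt2, a ligand close in sequence to Wnt2b and known from lung and placenta, did not share its pattern. It read 7.99, 6.53 and 7.72 in DN-Clim, against 7.68, 7.73 and 7.62 in WT. DN-Clim replicate 1 was the highest of the 6 arrays and DN-Clim replicate 2 the lowest, so that the DN-Clim SD was 0.78 and the WT SD 0.06. The difference was -0.26 (SE 0.339, 95% interval -1.03 to 0.50, adjusted p = 0.999), and without DN-Clim replicate 2 it was 0.18.

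Wnt6, Wnt7a, Wnt7b and Wnt10a are ligands known mainly from ectoderm and epithelia. Wnt6 and Wnt10a lie next to each other on chromosome 1, and their order of arrays was alike. Wnt3 and Wnt9b, neighbours on chromosome 11, differed in order, Wnt9b being highest on DN-Clim replicate 3 (10.18). A link between position and pattern was not tested. Wnt10a, whose human counterpart is mutated in ectodermal dysplasias, read 8.43, 8.03 and 9.09 in DN-Clim, against 8.72, 8.68 and 8.41 in WT. DN-Clim replicate 3 was the highest of the 6 arrays, 0.49 above the WT mean, and DN-Clim replicate 2 the lowest. The difference was -0.09 (SE 0.27, 95% interval -0.70 to 0.52, adjusted p = 0.999), and it was above 0 after quantile normalization (0.0082) and without DN-Clim replicate 2 (0.16).

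Wnt6 read 8.12, 7.53 and 8.38 in DN-Clim, against 8.29, 8.22 and 7.84 in WT. The highest and the lowest of the 6 values were both DN-Clim arrays, replicate 3 and replicate 2. The difference was -0.11 (SE 0.251, 95% interval -0.67 to 0.46, adjusted p = 0.999), and without DN-Clim replicate 2 it was 0.13. Of the 45 pairs among the 10 ligands, Wnt4 with Wnt6 had the most similar profiles (RMS difference 0.114), followed by Wnt4 with Wnt10a (0.119) and Wnt6 with Wnt10a (0.125), and Wnt2b with Wnt3 came sixth (0.19). Wnt5a differed most from the others, at 0.525 to 0.813 in its 9 pairs.

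Wnt7a and Wnt7b are close paralogues that signal in vessels of the brain, and Wnt7a has been linked with PAX6 in human corneal epithelial cells. Wnt7b read 8.60, 8.14 and 8.53 in DN-Clim, against 8.80, 8.50 and 8.32 in WT, with a difference of -0.12 (SE 0.211, 95% interval -0.59 to 0.36, adjusted p = 0.999). That sign turned without DN-Clim replicate 2 (0.03) and without WT replicate 1 (0.01).

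Wnt7a was the 1 ligand with a difference above 0. It read 6.97, 6.44 and 6.92 in DN-Clim, against 6.62, 6.70 and 6.49 in WT. DN-Clim replicates 1 and 3 lay above every WT array and DN-Clim replicate 2 below every WT array. The difference was 0.17 (SE 0.203, 95% interval -0.28 to 0.63, adjusted p = 0.999). It was 0.076 without DN-Clim replicate 1, 0.10 without DN-Clim replicate 3 and 0.34 without DN-Clim replicate 2, and the mean intensities were 94.9 in DN-Clim and 81.3 in WT. The probe sets outside the pathway with the most similar profiles to Wnt7a were those of Cngb1 (RMS difference 0.030), Ccdc180 (0.041), Isg20 (0.043), Tcf3 (0.043) and Ngef (0.053). These distances are small partly because Wnt7a varied little, so they are not set against those of Wnt5a. Tcf3 is a separate gene from the TCF/LEF factor Tcf7l1, which stands in the list of intracellular transducers.

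**Figure D4:**
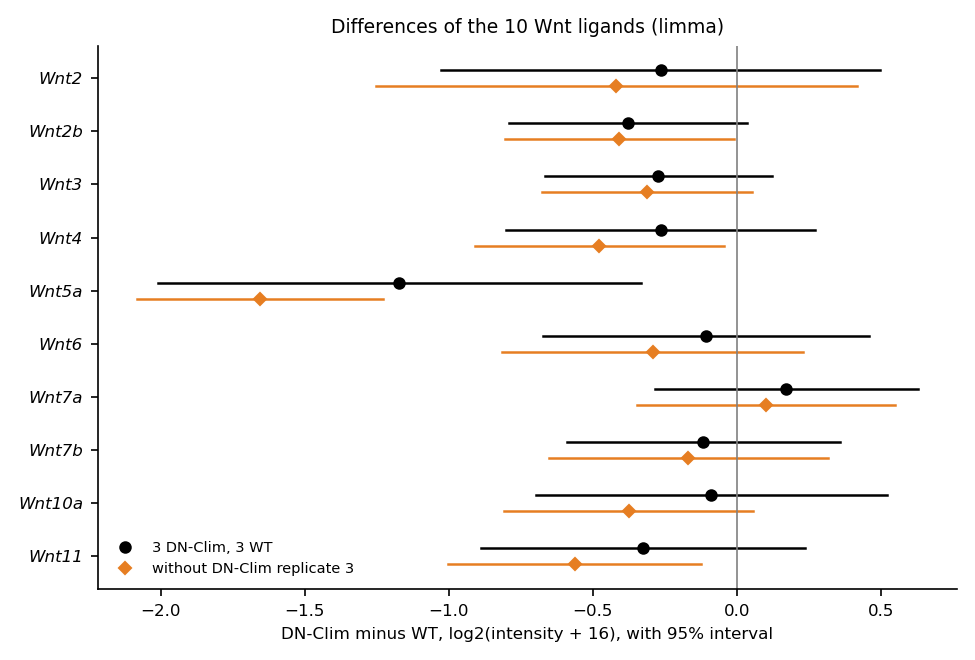
Difference of each Wnt ligand, DN-Clim minus WT in log2(intensity + 16), with its 95% interval from limma, for all 6 arrays (black circles) and without DN-Clim replicate 3 (orange diamonds). With all 6 arrays the interval of Wnt5a, -2.01 to -0.33, is the 1 of 10 that does not include 0, before any adjustment for the number of probe sets tested.

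Taken array by array, the ligands were lowest on DN-Clim replicate 2. On that array all 10 lay below the lowest WT array and 0 above the highest, against 50% and 27.2% of all probe sets. Wnt7a (6.44 against 6.49) and Wnt3 (7.40 against 7.51) lay below by little. Their gaps were smaller than the median deviation of all probe sets on that array, -0.16, so this count depends on the level of the array. On DN-Clim replicate 1, 5 lay below every WT array (Wnt2b, Wnt3, Wnt4, Wnt5a and Wnt11) and 2 above (Wnt2 and Wnt7a), against 38.8% and 23.1% of all. On DN-Clim replicate 3, 2 lay below and 4 above (Wnt4, Wnt6, Wnt7a and Wnt10a), against 28.2% and 39.8% of all. Their median deviation from the WT mean was -0.21, -0.58 and 0.10 on DN-Clim replicates 1, 2 and 3, beside -0.07, -0.16 and 0.06 for all probe sets.

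Over the 10 ligands, the RMS difference between DN-Clim replicate 3 and single WT arrays was 0.23 to 0.353, against 0.213 to 0.298 between WT arrays. For DN-Clim replicate 1 it was 0.55 to 0.679, and 0.317 to 0.34 when Wnt5a was left out. For DN-Clim replicate 2 it was 0.654 to 0.867, and 0.525 to 0.689 without Wnt5a. Over all probe sets tested, the range was 0.406 to 0.508 for DN-Clim replicate 1 and 0.502 to 0.666 for DN-Clim replicate 2. It was 0.398 to 0.475 for DN-Clim replicate 3 and 0.291 to 0.367 between WT arrays. Wnt5a therefore held most of the distance of DN-Clim replicate 1 from WT in this family. On DN-Clim replicate 2 the other ligands were also distant, about as far as probe sets in general.

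The rest of the Wnt pathway was read from lists by role. No gene passed with all 6 arrays in any of them. Of the 9 other Wnt ligands, 6 were below 0, with a median of -0.09, against 57.2% below 0 among all probe sets. The smallest p-values there were those of Wnt8a (-0.34, adjusted p = 0.916) and Wnt8b (-0.23, adjusted p = 0.999). Of 8 genes of Wnt maturation and release, 5 were below 0, with a median of -0.22, again against 57.2% of all probe sets. Wls, the carrier that brings Wnt proteins to the cell surface, read 9.64, 9.34 and 10.03 in DN-Clim, against 10.46, 10.10 and 10.08 in WT. It was the 1 of these 8 genes with all 3 DN-Clim arrays below the WT arrays, a pattern that 6.95% of all probe sets shared. The difference was -0.54 (SE 0.226, adjusted p = 0.821). Trabd2b, a protease that cleaves Wnt proteins, differed by -0.57 (SE 0.295, adjusted p = 0.91).

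Of 24 receptors and co-receptors, 17 were below 0, with a median of -0.14, against 57.2% below 0 among all probe sets. Fzd7, a Frizzled receptor, read 9.44, 9.61 and 9.54 in DN-Clim, against 10.03, 10.02 and 9.90 in WT. These groups did not overlap, as for 3 of the 24 with DN-Clim lower, against 6.95% of all probe sets. The difference was -0.45 (SE 0.17, adjusted p = 0.788). Fzd3, a Frizzled of axon guidance, read 9.86, 10.54 and 9.04 in DN-Clim, against 8.63, 9.13 and 9.51 in WT, a difference of 0.72 (SE 0.37, adjusted p = 0.898). Its high values were those of DN-Clim replicates 1 and 2, the arrays on which Wnt5a was low.

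Of 18 secreted modulators, 11 were below 0, with a median of -0.09, against 57.2% below 0 among all probe sets, and 2 fell without DN-Clim replicate 3, where 1.52% of all probe sets did. Dkk2, an inhibitor of Lrp co-receptors, read 9.19, 9.74 and 11.44 in DN-Clim, against 11.35, 11.60 and 11.31 in WT. As for Wnt5a, DN-Clim replicates 1 and 2 lay below every WT array and DN-Clim replicate 3 among them. Its difference was -1.30 (SE 0.48, adjusted p = 0.788), and it fell by 1.96 without DN-Clim replicate 3 (adjusted p = 0.00641). Sfrp2, which binds Wnt proteins outside the cell, read 10.73, 10.38 and 10.71 in DN-Clim, against 11.99, 11.69 and 11.44 in WT. Unlike Wnt5a it was low on all 3 DN-Clim arrays, with a difference of -1.10 (SE 0.208, adjusted p = 0.404), and it fell by 1.15 without DN-Clim replicate 3 (adjusted p = 0.0361).

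Of 15 intracellular transducers, 9 were above 0 and 6 below, with a median of 0.06, against 57.2% below 0 among all probe sets. Apc, a scaffold of the complex that destroys beta-catenin, differed by 0.39 (SE 0.192, adjusted p = 0.89) and Pygo2, a coactivator, by 0.21 (SE 0.179, adjusted p = 0.999). Of 11 feedback targets of beta-catenin, 7 were below 0, with a median of -0.27, beside the same 57.2% of all probe sets. Apcdd1, a membrane inhibitor of Wnt signalling, read 7.98, 7.96 and 9.23 in DN-Clim, against 9.29, 9.84 and 8.98 in WT. It differed by -0.98 (SE 0.363, adjusted p = 0.788) and was the 1 target that fell without DN-Clim replicate 3 (-1.40, adjusted p = 0.0319), again against 1.52% of all probe sets. Nkd2, which binds Dishevelled, differed by -0.65 (SE 0.267, adjusted p = 0.819). Notum, an enzyme that removes the lipid from Wnt proteins, stands in both the release and the target list, at 0.09.

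**Figure D5:**
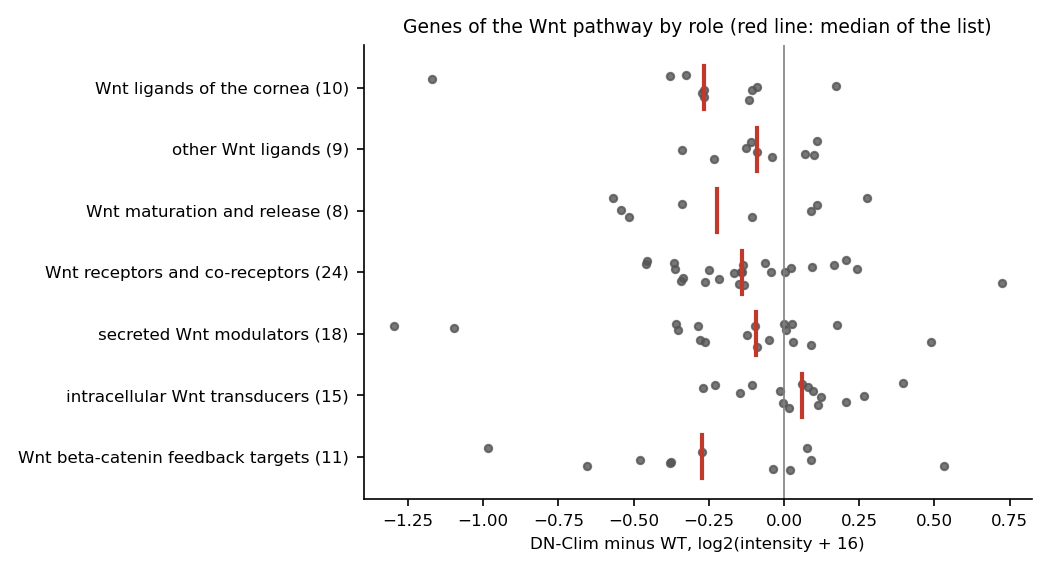
Difference of each gene, DN-Clim minus WT in log2(intensity + 16) over all 6 arrays, for the 10 Wnt ligands and 6 lists of other pathway genes, with the number of measured genes in brackets and the median of each list as a red line. The medians lie between -0.27 and 0.06, and no point stands for a gene that passed.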

How the data were processed

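Whole-cornea RNA of 3 DN-Clim and 3 WT samples was amplified, labelled with biotin and hybridised to arrays, per the labels' protocols. The deposited intensities, 1 linear value per probe set and array, were made by the authors with Affymetrix Expression Console 1.1 and PLIER, per the submitters' processing notes. Neither background correction nor normalization between arrays is described in the labels, and the files hold no detection calls. Array medians ran from 230.8 to 280.9, and the number of arrays limits the precision.

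The value table held 35557 probe sets, of which a platform table paired 21789 with 1 symbol and 1621 with several, and 12147 had no name here. The 23410 named probe sets were fitted on log2(intensity + 16) by lmFit and eBayes of limma 3.58.1 (R 4.3.3) for DN-Clim minus WT. The p-values were adjusted by Benjamini-Hochberg over all of them, with a threshold of 0.05. The fit was tested on simulated data, with settings and outcome not reported here, so no result above rests on that test.

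The members and lists were chosen with earlier results of these data known. Named were all 10 members, of each pathway list the genes past the threshold with all arrays or without DN-Clim replicate 3 and otherwise the 2 with the smallest p, and the 5 probe sets nearest in pattern to the members with the largest decrease and increase, among those with a mean intensity of at least 100. Pdgfra, Aldh1a1, Krt12, Krt14 and Clec14a were named after their values were seen, and the 5 promoter strings were chosen after their matches were seen. Some listed items are not reported here. The alternatives tried were offsets of 1 and 64, quantile normalization, centring on medians, a filter on dim probe sets, all probe sets, a trended robust prior, array weights, a replicate block, a lens covariate and leaving out arrays.

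Same-numbered DN-Clim and WT arrays did not deviate together from their group means (correlations across probe sets of 0.017, -0.206 and -0.436), so the numbers were not taken as pairs.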

Additional observations from a re-analysis of the deposited data

How the results depend on the processing

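Of 170 comparisons of a ligand with an alternative, 149 kept the sign and the side of the threshold, 19 turned sign and 2, both of Wnt5a, became past the threshold. All 149 are of ligands that passed in neither setting. Wnt2b, Wnt3 and Wnt5a stayed below 0 and Wnt7a above 0 in every alternative run, Wnt7a in 16 of them, since the filter on dim probe sets removed it. Wnt5a ranged from -1.67 to -0.20.

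With the lens covariate the median of the 10 ligands was 0.062, and Wnt2 was 0.035, Wnt4 0.13, Wnt6 0.25, Wnt7b 0.011, Wnt10a 0.44 and Wnt11 0.088. Against WT, DN-Clim replicate 3 by itself, whose spread is taken from the WT arrays, gave a median of 0.095, and Wnt2 was 0.043, Wnt4 0.16, Wnt6 0.26, Wnt10a 0.49 and Wnt11 0.15. These settings are not separate checks, since both set DN-Clim replicates 1 and 2 apart. Without DN-Clim replicate 2, Wnt2 was 0.18, Wnt6 0.13, Wnt7b 0.026 and Wnt10a 0.16, and Wnt7b was 0.014 without WT replicate 1. Over the fits that left out single arrays, Wnt2 ranged from -0.55 to 0.18, Wnt4 from -0.48 to -0.045, Wnt11 from -0.56 to -0.12, Wnt7a from 0.076 to 0.34, Wnt6 from -0.29 to 0.13, Wnt7b from -0.23 to 0.026 and Wnt10a from -0.38 to 0.16. Array weights gave 0.13 for Wnt2 and 0.030 for Wnt7b, and quantile normalization 0.0082 for Wnt10a. The cause of these turns was not tested. When arrays were left out singly, the median of the 10 ranged from -0.39 to -0.0096.

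The count of probe sets past the threshold, 3 with all 6 arrays, was 1 with quantile normalization, 0 with all 35557 probe sets, 5 with the trended robust prior, 2059 with array weights, 7 with the lens covariate and 79 with DN-Clim replicate 3 alone. Array weights were estimated gene by gene, because limma's default estimate stopped without converging, with a weight of 34.9 on DN-Clim replicate 1. Leaving out single arrays gave 0 to 483, the 483 without DN-Clim replicate 3 and 0 without each of the other 5, with unadjusted p under 0.05 for 638 to 1240 probe sets in those 5 limma fits. The replicate block gave 9 probe sets, and Wnt5a at -1.17 (adjusted p = 0.575), with no ligand changing its call. The block pairs samples by number only, and none of the 6 arrays correlated best with its own number.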
